A study of Mus musculus with 12 samples.

Results

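The genes of the proteasome were compared across the DN2, DN3 and DN4 stages of early T cell development in the mouse thymus. Members were the genes whose single platform symbol began with Psm, a letter from a to g and a digit, leaving out the immunoproteasome genes Psmb8 and Psmb9. The rule took 47 of the 18193 genes with a probe set of 1 symbol, each represented by its brightest probe set. Of these, 45 are proteasome subunits, activators, an inhibitor or assembly chaperones. Psmc3ip, a protein of meiotic recombination, and Psme3ip1, a partner of the activator Psme3, matched by symbol only and are kept in the counts. A level filter, a signal above the median of the whole table on at least 4 arrays, was passed by 46 members. Psmb11 did not pass it. Psme2 is not a member because its probe set carries several symbols.

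The mice were C57BL/6 females of 5 to 6 weeks, and the labels name no mutation or treatment. Each of 4 sorts pooled 4 mice and gave 1 sample of each stage, and every sample was hybridized to its own Affymetrix Mouse Genome 430 2.0 array. DN2 cells were CD44+CD25+, DN3 cells CD44-CD25+ and DN4 cells CD44-CD25-, and all had been depleted of CD4+ and CD8+ cells and gated as negative for CD4, CD8, CD3, NK1.1 and the gamma-delta T cell receptor. A CD44-CD25- gate is defined by what is absent, so other cells negative for these markers can enter it.

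The proteasome degrades proteins that carry ubiquitin chains. Its barrel, the 20S core, has outer rings of alpha subunits that form the gate and inner rings of beta subunits that hold the active sites. The 19S cap, made of ATPases and of subunits without ATPase activity, binds, unfolds and feeds in the substrate, whereas other activators open the gate without needing ubiquitin. In developing thymocytes the step from DN3 to DN4 follows signals from the pre-T cell receptor and is accompanied by rapid division, and protein turnover by the proteasome takes part in cell cycle progression.

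Levels are log2 of the quantile-normalized signal plus an offset, with the SD over 4 arrays, and differences are of stage means with the SE of the limma fit. Array medians of the deposited signal ranged from 15.2 to 28.1, and the log2 ratio of 3' to 5' Gapdh signal, a sign of RNA quality, from 0.88 to 1.82, with its highest value in DN2 sort 2. Cd44 averaged 9.44 in DN2, 5.76 in DN3 and 5.62 in DN4, and Il2ra, which encodes CD25, averaged 11.2, 10.46 and 6.9 in that order, following the gates. The Cd4 probe set lay below the filter. Both genes of CD8, for which the gate was negative, passed the filter, though their averages were not above its level of 4.71 at every stage. Cd8a averaged 3.8 in DN2, 4.96 in DN3 and 7.28 in DN4, and Cd8b1 3.16, 4.52 and 8.28. Both were called higher in DN4 than in DN2 (limma adjusted p = 1.98e-05 and 2.16e-07). Markers of other cell types moved with the stages as well. The summed signal of the mast cell list was 2730 to 3770 in DN2, 61.4 to 218 in DN3 and 31 to 65.3 in DN4. This sum came mainly from Cpa3, the 1 of 4 mast cell genes that passed the filter. The dendritic and myeloid sum was 759 to 1350 in DN2, 327 to 508 in DN3 and 338 to 988 in DN4, with Flt3 and Itgam below the filter. Its genes did not move alike. Tyrobp averaged 7.86, 4.24 and 4.11, and Lyz2, Itgax, Fcer1g and Cd68 also averaged lower in DN4 than in DN2. H2-Aa averaged 7.75, 6.26 and 7.8, and H2-Ab1, Cd74 and Csf1r averaged higher in DN4 than in DN2. The mature T cell sum was 1870 to 2210 in DN2, 972 to 1290 in DN3 and 578 to 994 in DN4. Its brightest gene was Il7r, at 10.07, 9.58 and 8.53, and S1pr1, Klf2 and Cd52 also averaged lower in DN4 than in DN2. Cd5 (6.84 in DN2 and 7.03 in DN4) and Ccr7 (4.87 and 5.44) averaged higher in DN4. The B cell sum was 334 to 454 in DN2, 272 to 374 in DN3 and 236 to 355 in DN4, and the natural killer sum 3760 to 6260, 6760 to 7330 and 7150 to 8770. This last sum came mainly from Gzma, at 11.58, 12.67 and 12.97, whereas Nkg7 averaged 10.68, 9.08 and 6.24 and Klrd1 5.2, 3.76 and 4.02, both called lower in DN4 than in DN2, and Ncr1 lay below the filter. The red cell sum was 5.85 to 16.7 in DN2, 9.91 to 24.8 in DN3 and 19.5 to 85.7 in DN4. Neither red cell gene on the array, Hba-a1 or Alas2, passed the filter, although Alas2 averaged 5.47 in DN4, above the filter level of 4.71. The part of these cells in the differences below was not tested, and in such bulk samples fewer cells of a type and less RNA per cell cannot be told apart.

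Most proteasome genes had higher levels in DN4 than in DN2 cells, by small amounts, and about 1 in 3 passed the test. In DN4 against DN2, 16 of 46 members were called higher and 1 lower at an adjusted p under 0.05 (limma, Benjamini-Hochberg over all 11170 genes tested). That is 34.8% higher, against a background of 17.9% of all genes tested, and 2.17% lower, against 16.8%. The median difference of the members was 0.25, or 19.1%, against 0.06 for all genes, and 43 of 46 differences were positive (93.5%, against 54.9% of all genes). Stages did not overlap for 16 members in the higher direction, where the background is 17%, and for 1 in the lower direction, where it is 15.6%. Without the array of DN2 sort 2 or that of DN4 sort 4 the count of higher members was 12 (background 16.5% and 14.4%). Without normalization between arrays it was 1 of 46 (background 2.56%), and within sorts 1 and 2 alone 2 of 46 (background 10.2%). Neither of these shares exceeds the background. Within sorts 3 and 4 alone the count was 10 of 46 (background 12.4%). With the sort block and the Gapdh ratio as a covariate it was 16 (background 16.6%), and the calls of Psmb7, Psmc6, Psmd8 and Psmg2 were lost. The median SE of a member's difference was 0.12, against 0.18 over all genes, so smaller differences could pass the test among members.

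The single steps called fewer members. In DN3 against DN2, 2 members were called higher (4.35%, background 4.78%) and 0 lower (background 6.45%), and 7 had an unadjusted p under 0.05. This share is close to the background. In DN4 against DN3, 3 members were called higher (6.52%, background 7.17%) and 0 lower (background 9.09%), with 16 at an unadjusted p under 0.05. When the fit was blocked by sort, which uses the shared cell source of the arrays of a sort, DN4 against DN3 gave 15 higher (32.6%, background 15.4%) and 0 lower (background 14.9%). The 12 that joined were Psma7, Psmb2, Psmc1, Psmc3, Psmc3ip, Psmc5, Psmd1, Psmd7, Psmd9, Psmd10, Psme3 and Psmg3, with adjusted p-values of 0.00457 to 0.0401. The blocked fit gave 2 higher (background 9.96%) and 0 lower (background 11%) in DN3 against DN2, and 23 higher (50%, background 24.8%) and 1 lower (background 22%) in DN4 against DN2. The median difference was 0.08 in DN3 against DN2 and 0.15 in DN4 against DN3, and the second became -0.16 without normalization between arrays, where the median over all genes was -0.41. Differences were positive for 34 of 46 members (73.9%) in DN3 against DN2, where 52.4% of all genes were positive, and for 44 of 46 (95.7%) in DN4 against DN3, where 54.9% were. In DN3 against DN2 the stages did not overlap for 3 members in the higher direction (background 8.1%) and 1 in the lower (background 9.35%). In DN4 against DN3 they did not overlap for 14 in the higher direction (30.4%, background 12.5%) and 0 in the lower (background 11.6%). The 3 comparisons share arrays in pairs and are not independent of each other.

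**Figure D1:**
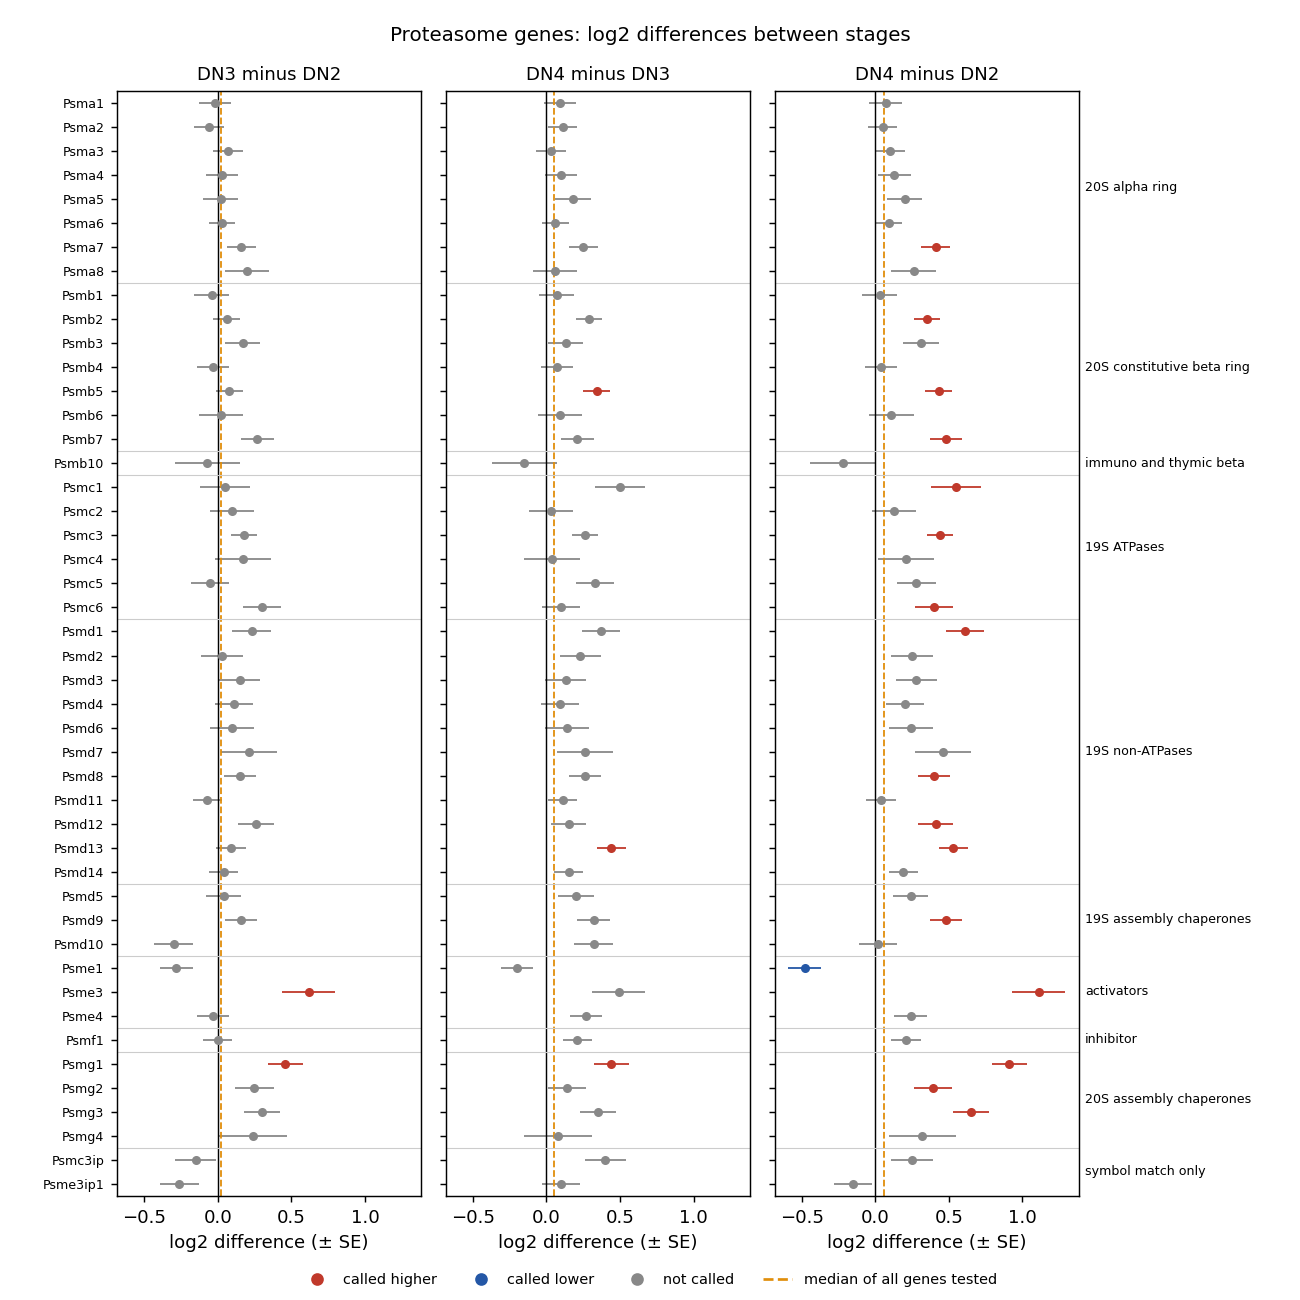
Log2 differences between stages with SE (x axis, n = 4 arrays a stage) for the 46 tested members, grouped by role (y axis), with a panel for each comparison, calls in colour and a dashed line at the median of all genes tested. Most points lie right of 0 in DN4 minus DN2, where Psme3 at 1.11 and Psmg1 at 0.91 are farthest right and Psme1 at -0.48 is the 1 member called lower.

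With each gene at its brightest probe set, the greatest difference belonged to Psme3, the nuclear activator that degrades some proteins without ubiquitin (chromosome 11, 101316213 to 101323537, GRCm38.p6). Its level was 8.78, 8.64, 9.22 and 9.27 on the DN2 arrays of sorts 1 to 4, 9.57, 9.24, 9.66 and 9.92 on the DN3 arrays and 10.14, 9.89, 10.18 and 10.15 on the DN4 arrays. Each sort showed the same order of stages, and DN4 and DN2 did not overlap, whereas DN3 overlapped both. In DN4 against DN2 the difference was 1.11 ± 0.18, or 2.16-fold (adjusted p = 0.000497, limma), and it was between 0.89 and 1.35 in the 4 sorts. Averaged over all 3 Psme3 probe sets, of which 1 is dim, the difference was 0.6 (adjusted p = 0.00705), less than the 0.91 of Psmg1. It was 0.62 ± 0.18 in DN3 against DN2 (adjusted p = 0.0414), a call lost when any of 8 single arrays was left out and with the mean of its probe sets (0.28), and 0.49 ± 0.18 in DN4 against DN3 (adjusted p = 0.0769, or 0.00789 when blocked by sort). A further probe set of Psme3 that was bright enough to test differed by 0.77 in DN4 against DN2.

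Of the other activators, 1 was called lower and 1 was not called in DN4 against DN2. Psme1, a subunit of the interferon-inducible activator of the immunoproteasome (chromosome 14, 55578494 to 55581527), had levels of 11.54, 11.42, 11.36 and 11.18 in DN2, 11.04, 11.1, 11.15 and 11.09 in DN3 and 10.91, 10.92, 11.05 and 10.71 in DN4. DN2 lay above both later stages on every array, and DN3 and DN4 overlapped. Psme1 was lower in DN4 than in DN2, by -0.48 ± 0.11 (adjusted p = 0.00565, limma), in 4 of 4 sorts, and the call was lost with arrays centred on their median (-0.26, adjusted p = 0.103). Its differences of -0.28 ± 0.11 in DN3 against DN2 (adjusted p = 0.14) and -0.2 ± 0.11 in DN4 against DN3 (adjusted p = 0.238) did not pass. Psme4, an activator found in the nucleus and linked to histone turnover in the testis, had levels of 9.57, 9.63, 9.47 and 9.26 in DN2, 9.5, 9.26, 9.5 and 9.53 in DN3 and 9.8, 9.61, 9.72 and 9.74 in DN4. DN4 lay above DN3 on every array and overlapped DN2. Neither the difference of 0.27 ± 0.11 in DN4 against DN3 (adjusted p = 0.124) nor that of 0.24 ± 0.11 in DN4 against DN2 (adjusted p = 0.126) passed. Of its 3 further probe sets bright enough to test, 1 was called higher in DN4 than in DN2 (0.66, adjusted p = 0.0203 over all bright probe sets) and 2 differed by 0.12 and 0.28. Psmf1, an inhibitor of the core in vitro, differed by 0.21 ± 0.1 in both comparisons of DN4, without a call. Its 3 other bright probe sets ran the opposite way in DN4 against DN2, by -0.19, -0.38 and -0.46, the last with an adjusted p of 0.0382, so the direction of Psmf1 depends on the probe set.

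The promoter of Psme3 is shown because this gene differed most. In the 250 bases before the start site it holds 2 of the motif matches searched, an E-box (CACGTG) and a CCAAT box read on the other strand, which end 38 and 9 bases before the start. The last 120 bases before the start, at chr11:101316093-101316212 on the plus strand of GRCm38.p6 as given by RefSeq, are printed 5' to 3' with the matches in capitals.
Psme3: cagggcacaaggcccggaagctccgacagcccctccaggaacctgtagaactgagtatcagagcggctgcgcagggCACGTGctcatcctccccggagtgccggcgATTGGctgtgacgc
An E-box stood in 5 of the 39 members with a RefSeq promoter (12.8%), Psma4, Psmb10, Psmd9, Psme3 and Psme3ip1, and in 6.86% of all genes with one. A CCAAT box stood in 15 of 39 (38.5%) and in 37.5% of all genes. A match is a description of the letters and no evidence of binding.

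Among the chaperones that build the 20S core, 3 of 4 were called higher in DN4 against DN2 (background 17.9%) and 4 of 4 when blocked by sort (background 24.8%), with a median difference of 0.52 against 0.06 for all genes. With the mean of each gene's probe sets 1 of 4 was called, Psmg1, which has a single probe set. Psmg1, which pairs with Psmg2 to align the alpha ring (chromosome 16, 95979933 to 95990960), had levels of 9.63, 9.33, 9.72 and 9.55 in DN2, 9.91, 9.94, 10.04 and 10.19 in DN3 and 10.46, 10.25, 10.59 and 10.55 in DN4. The stages did not overlap at either step. Its difference was 0.91 ± 0.12 in DN4 against DN2, or 1.87-fold (adjusted p = 0.000156, limma), and 0.83 to 0.99 in the 4 sorts. Psmg1 was the 1 member called at both steps, by 0.46 ± 0.12 in DN3 against DN2 (adjusted p = 0.029) and 0.44 ± 0.12 in DN4 against DN3 (adjusted p = 0.0286). The first of these calls was lost without any of 4 single arrays and the second without any of 6. Of the 13 other alternatives, 6 ended the first, among them the sort block with the Gapdh ratio as a covariate (0.56, adjusted p = 0.106), and 5 the second, among them arrays centred on their median (0.46, adjusted p = 0.0587). The Gapdh ratio itself averaged 1.39 in DN2, 1.04 in DN3 and 1.16 in DN4.

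Psmg3, which pairs with Psmg4, averaged 9.42 ± 0.05 in DN4 and 8.76 ± 0.22 in DN2, a difference of 0.65 ± 0.12 (adjusted p = 0.00121). A second, dimmer probe set of Psmg3 differed by -0.26 in the same comparison, and with the mean of the probe sets the difference was 0.2 (adjusted p = 0.313). Psmg2 differed by 0.39 ± 0.13 (adjusted p = 0.0398), a call lost without any of 6 single arrays and with the mean of its probe sets (0.19, adjusted p = 0.361). A further bright probe set of Psmg2 differed by 0.6 (adjusted p = 0.068 over all bright probe sets). Another, too dim to test, differed by -0.42. Psmg4 was higher in sorts 1 and 2 than in sorts 3 and 4 at each stage, with 8.35 to 9.38 over the 12 arrays. Its difference of 0.32 ± 0.23 (adjusted p = 0.317) passed when blocked by sort (adjusted p = 0.0468).

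**Figure D2:**
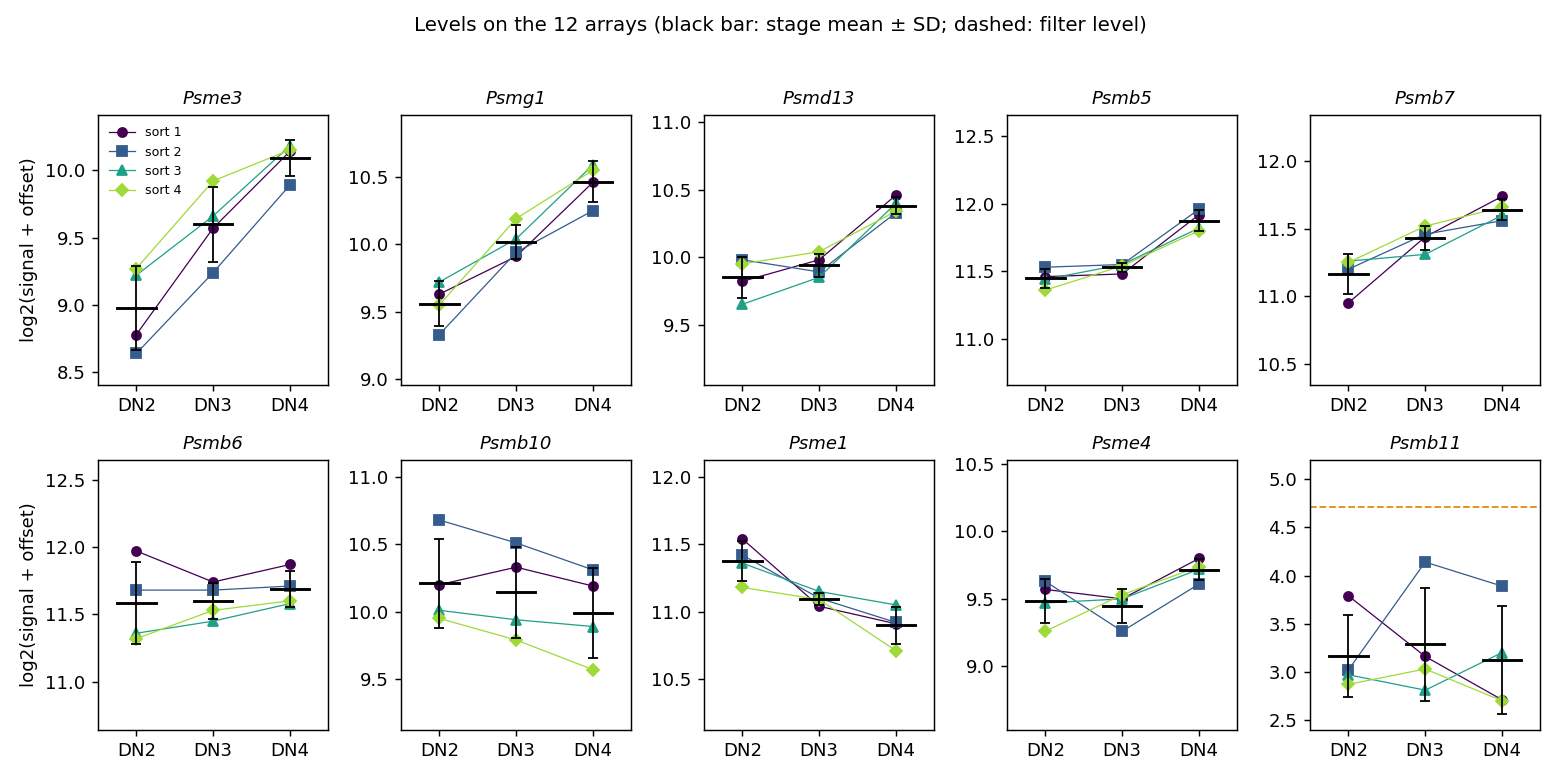
Levels as log2(signal + offset) (y axis) on the 12 arrays by stage (x axis) for 10 members, with a marker and line for each sort, and the stage mean and SD in black (n = 4). Psmg1 and Psmb7 do not overlap between any of the stages, Psmb6 and Psmb10 are separated by sort, and all 12 values of Psmb11 lie below the dashed filter level of 4.71.

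Among the constitutive beta subunits, 3 of 7 were called higher in DN4 than in DN2 (background 17.9%), and these included 2 of the 3 that hold the active sites. Psmb5, the subunit with chymotrypsin-like activity (chromosome 14, 54614120 to 54617995), had levels of 11.46, 11.53, 11.44 and 11.36 in DN2, 11.48, 11.55, 11.55 and 11.54 in DN3 and 11.92, 11.96, 11.82 and 11.8 in DN4. DN4 lay above the other two stages, which overlapped. The difference was 0.34 ± 0.09 in DN4 against DN3 (adjusted p = 0.0235, limma), lost without any of 5 single arrays, and 0.43 ± 0.09 in DN4 against DN2 (adjusted p = 0.00339).

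Psmb7, the subunit with trypsin-like activity (chromosome 2, 38588046 to 38643952), had levels of 10.95, 11.2, 11.26 and 11.25 in DN2, 11.44, 11.46, 11.31 and 11.52 in DN3 and 11.74, 11.56, 11.6 and 11.66 in DN4. The stages did not overlap at either step. It differed by 0.48 ± 0.11 in DN4 against DN2 (adjusted p = 0.00444), while 0.27 ± 0.11 in DN3 against DN2 (adjusted p = 0.132) and 0.21 ± 0.11 in DN4 against DN3 (adjusted p = 0.204) did not pass. Psmb6, the subunit with caspase-like activity, had levels of 11.97, 11.68, 11.36 and 11.32 in DN2, 11.74, 11.68, 11.45 and 11.53 in DN3 and 11.87, 11.71, 11.58 and 11.6 in DN4. Its stages overlapped, sorts 1 and 2 were above sorts 3 and 4 at each stage, and the difference in DN4 against DN2 was 0.11 ± 0.15 (adjusted p = 0.605). Of the subunits without active sites, Psmb2 differed by 0.35 ± 0.09 (adjusted p = 0.0116) and Psmb3 by 0.31 ± 0.12 (adjusted p = 0.0571, or 0.0173 when blocked by sort), whereas Psmb1 and Psmb4 differed by 0.03 and 0.04.

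In the alpha ring, 1 of 8 members was called in DN4 against DN2 (background 17.9%), with a median difference of 0.12. That gene was Psma7, at 10.89 ± 0.12 in DN4 and 10.48 ± 0.07 in DN2, a difference of 0.41 ± 0.1 (adjusted p = 0.00775). The constitutive Psma1 to Psma6 differed by 0.05 to 0.2 at their brightest probe sets, none with a call. Second probe sets of Psma5 (0.3, adjusted p = 0.0441 over all bright probe sets) and Psma6 (0.41, adjusted p = 0.0314), at levels of 11.16 to 12.14, did pass, so the count in this ring depends on the probe set. Psma8, an alpha subunit of the testis, passed the filter on 11 of 12 arrays at levels of 4.59 to 5.32, close to the filter level of 4.71, and was not called. Without Psma8, 4 of 14 core subunits were called higher (28.6%), against 7 of 17 subunits of the 19S cap (41.2%), a difference that was not tested.

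Psmb10 takes the place of Psmb7 in the immunoproteasome, the form made in immune cells and after interferon. Its levels were 10.2, 10.68, 10.01 and 9.95 in DN2, 10.33, 10.51, 9.94 and 9.79 in DN3 and 10.19, 10.31, 9.89 and 9.57 in DN4 (chromosome 8, 105935728 to 105938392). Sorts 1 and 2 were above sorts 3 and 4 at each stage, and the stages overlapped. Psmb10 differed by -0.22 ± 0.22 in DN4 against DN2 (adjusted p = 0.472, or 0.0679 when blocked by sort), and was lower in DN4 in 4 of 4 sorts, with differences of -0.38 to -0.01. Relative to Psmb7 it changed by -0.69 in DN4 against DN2 (exact two-sided permutation p = 0.0857 with a smallest possible p of 0.0286, and 0.229 adjusted over 3 comparisons). The same quantity was -0.34 in DN3 against DN2 and -0.36 in DN4 against DN3 (exact permutation p = 0.229 for each), and was negative in 4 of 4 sorts in each comparison.

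Psmb11 encodes the beta subunit of the thymoproteasome, which cortical epithelial cells of the thymus use to make the peptides that select CD8 T cells. Its levels were 3.79, 3.02, 2.97 and 2.87 in DN2, 3.16, 4.14, 2.81 and 3.03 in DN3 and 2.71, 3.89, 3.2 and 2.7 in DN4. All 12 arrays were below the filter level, so the gene was not tested. The thymic epithelium list, which held 8 tested genes, had summed signals of 183 to 302 in DN2, 264 to 299 in DN3 and 212 to 302 in DN4. Of its genes 0 were called in DN4 against DN2, whereas Prss16 was lower in DN3 than in DN2 (-0.97 ± 0.25, adjusted p = 0.0245) and Krt8 higher in DN4 than in DN3 (1.37 ± 0.4, adjusted p = 0.0357). Blocked by sort, the list gave 1 gene higher and 1 lower at each single step. Foxn1, the transcription factor that defines this epithelium, averaged 4.55 in DN2, 4.03 in DN3 and 4.38 in DN4. Foxn1 passed the filter, but each of these averages lies below the filter level of 4.71. Tbata and Enpep did not pass the filter.

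The 19S cap was called higher in 7 of 17 subunits in DN4 against DN2 (background 17.9%), and in 11 of 17 when blocked by sort (background 24.8%), with a median difference of 0.28. Without the array of DN2 sort 2 or that of DN4 sort 4 the count was 4. Among the ATPases, which unfold substrates, 3 of 6 were called: Psmc1 by 0.55 ± 0.17 (adjusted p = 0.0237), Psmc3 by 0.44 ± 0.09 (adjusted p = 0.00266) and Psmc6 by 0.4 ± 0.13 (adjusted p = 0.0351). Psmc2, Psmc4 and Psmc5 differed by 0.13, 0.21 and 0.28 without a call, and Psmc5 passed when blocked by sort (adjusted p = 0.0321). A second probe set of Psmc4 passed as well (0.32, adjusted p = 0.0397 over all bright probe sets). The calls of Psmc1 and Psmc6 depended on single arrays, 4 for Psmc1 and 5 for Psmc6. Both were lost with the mean of each gene's probe sets (0.17 and 0.11). The other probe set of Psmc1 was too dim to test, with stage averages of 3.16 to 3.45. Those of Psmc6 were bright enough and differed by -0.11 and 0.04.

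Among the 11 subunits without ATPase activity, 4 were called in DN4 against DN2. Psmd13, a subunit of the lid (chromosome 7, 140882394 to 140898642), had levels of 9.82, 9.98, 9.65 and 9.95 in DN2, 9.98, 9.89, 9.85 and 10.04 in DN3 and 10.46, 10.33, 10.4 and 10.34 in DN4. DN4 lay above both earlier stages on every array, and DN2 and DN3 overlapped. It differed by 0.44 ± 0.1 in DN4 against DN3 (adjusted p = 0.015, limma), the call at this step that leaving out single arrays never ended, and by 0.53 ± 0.1 in DN4 against DN2 (adjusted p = 0.00212). Of the 13 other alternatives, 3 ended the call in DN4 against DN3. They were no normalization between arrays (0.04, adjusted p = 0.898), sorts 1 and 2 alone (0.45, adjusted p = 0.141) and sorts 3 and 4 alone (0.42, adjusted p = 0.151). Of the 3 other Psmd13 probe sets bright enough to test, 2 differed by 0.48 and 0.59 in DN4 against DN2 and the dimmest by -0.19. Psmd1, the scaffold of the base, differed by 0.61 ± 0.13 (adjusted p = 0.00442), Psmd8 by 0.4 ± 0.11 (adjusted p = 0.0133) and Psmd12 by 0.41 ± 0.12 (adjusted p = 0.0213), which was lost without any of 3 single arrays. Psmd14, which removes ubiquitin from the substrate, and the ubiquitin receptors Psmd2 and Psmd4 differed by 0.19, 0.25 and 0.2 without a call, and Psmd14 passed when blocked by sort (adjusted p = 0.0414). The lid subunits Psmd3, Psmd6, Psmd7 and Psmd11 differed by 0.04 to 0.46 and were not called, though Psmd3 and Psmd7 passed when blocked by sort (adjusted p = 0.0156 and 0.00181). The 0.04 of Psmd11 is that of its brightest probe set, and its 4 other bright probe sets differed by 0.06, 0.23, 0.31 and 0.56, the last with an adjusted p of 0.00722 over all bright probe sets.

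Of the 3 chaperones of the 19S base, Psmd9 was called in DN4 against DN2, at 9.18 ± 0.1 in DN4 and 8.71 ± 0.12 in DN2, a difference of 0.48 ± 0.11 (adjusted p = 0.00552). Psmd5 differed by 0.24 ± 0.12 (adjusted p = 0.153, or 0.0202 when blocked by sort). Psmd10, also known as the oncoprotein gankyrin, was the member with the most negative difference in DN3 against DN2, -0.3 ± 0.13 (adjusted p = 0.193), followed by 0.32 ± 0.13 in DN4 against DN3 (adjusted p = 0.128, or 0.031 when blocked by sort), so that DN4 and DN2 differed by 0.02. The symbol matches Psmc3ip and Psme3ip1 differed by 0.25 and -0.15 in DN4 against DN2 without a call.

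**Figure D3:**
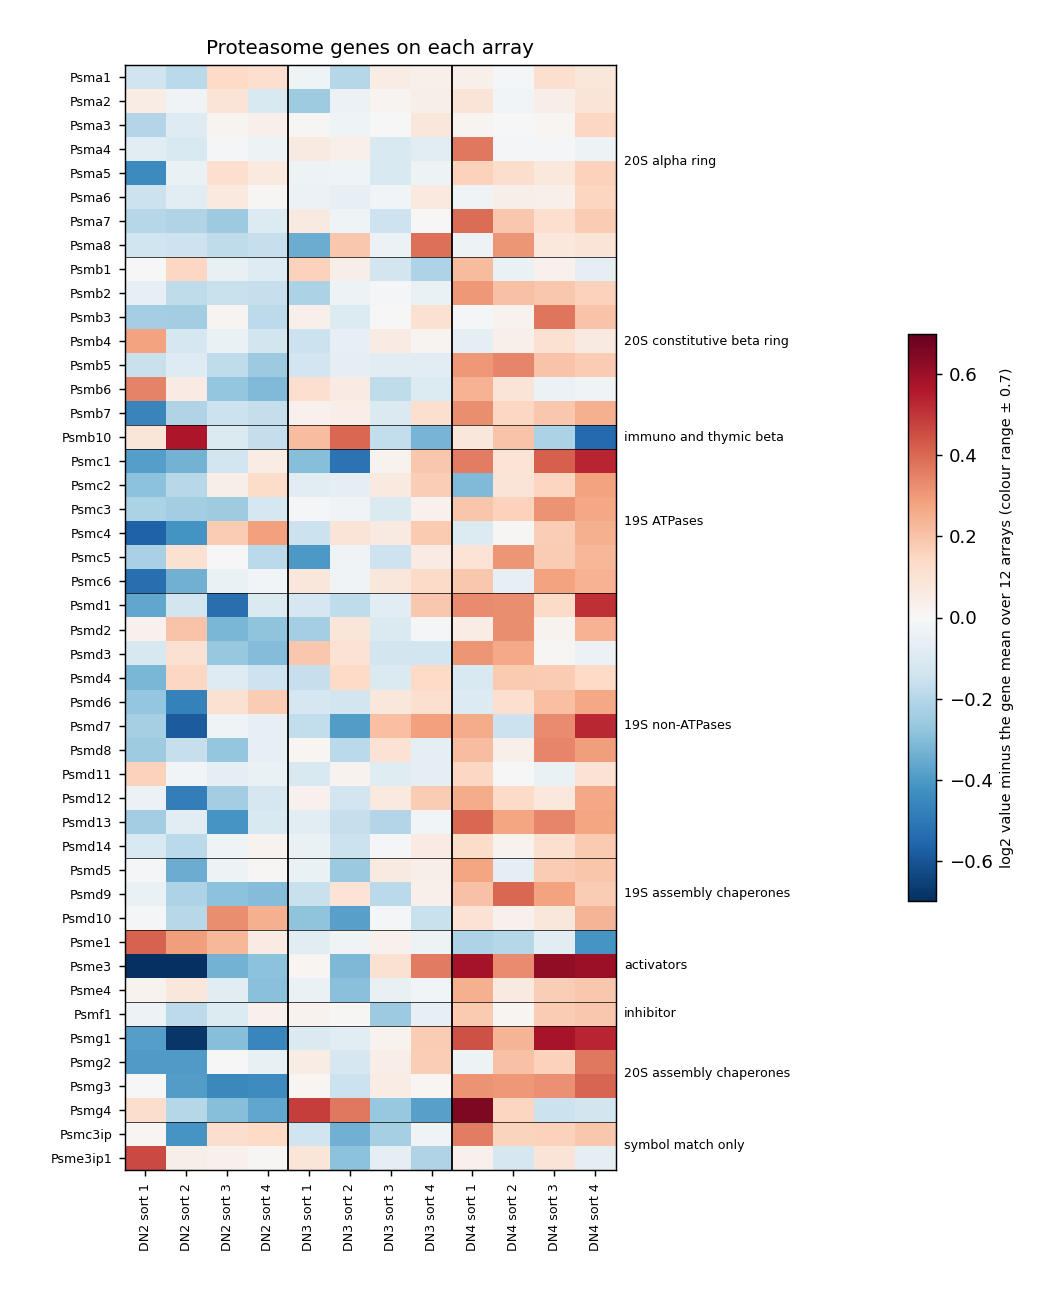
Each tested member's log2 value minus its mean over the 12 arrays (colour, red above and blue below, values past ± 0.7 at the end of the scale), by member (y axis, grouped by role) and array (x axis). Member medians are -0.18 to -0.07 in DN2, -0.05 to 0.03 in DN3 and 0.1 to 0.19 in DN4, where most cells are red, while Psme1 runs the other way and Psmb10 and Psmb6 follow the sort.

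Array by array, the median deviation of the 46 members from their means was -0.14, -0.18, -0.07 and -0.1 in DN2, -0.04, -0.05, -0.03 and 0.03 in DN3 and 0.19, 0.1, 0.16 and 0.19 in DN4. The stages did not overlap, and the same quantity over all 11170 genes was between -0.03 and 0.04 on every array. Split by level, the median difference in DN4 against DN2 was 0.32 for the 23 dimmer members and 0.19 for the 23 brighter ones, with 10 and 7 called. Of 41 further bright probe sets of 23 members, 29 differed in the same direction as the brightest one in DN4 against DN2, and those that did not included probe sets of Psmc6, Psmd7, Psmd13, Psmf1 and Psmg3. Within sorts 1 and 2 the median over members in DN4 against DN2 was 0.28, and within sorts 3 and 4 it was 0.27.

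Genes that act around the proteasome were compared by lists. Of 10 tested proteasome-associated genes, 1 was called higher (background 17.9%) and 1 lower (background 16.8%) in DN4 against DN2. Neither share exceeds the background. When blocked by sort, 3 were called higher (background 24.8%). The other two were the deubiquitinases Uchl5 (0.32 ± 0.12, adjusted p = 0.0568, or 0.0273 when blocked) and Usp14 (0.37 ± 0.14, adjusted p = 0.0591, or 0.0257 when blocked). Ublcp1, the phosphatase of the nuclear proteasome, averaged 8.4 ± 0.37 in DN4 and 6.87 ± 0.5 in DN2, a difference of 1.52 ± 0.27 (adjusted p = 0.00107), and it was also called higher in DN3 than in DN2 (0.96 ± 0.27, adjusted p = 0.0396). Its difference of 0.57 ± 0.27 in DN4 against DN3 (adjusted p = 0.173) passed when blocked by sort (adjusted p = 0.00444). Zfand5, a ubiquitin-binding protein that stimulates the proteasome, was lower in DN4 than in DN2 (-0.68 ± 0.12, adjusted p = 0.00106) and than in DN3 (-0.46 ± 0.12, adjusted p = 0.0225). Pomp, which assists assembly of the beta rings, differed by 0.06 ± 0.15 in DN4 against DN2.

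Of 7 tested genes that supply or deliver ubiquitin, 4 were called higher in DN4 against DN2 (background 17.9%) and 0 lower (background 16.8%). They were the shuttle genes Rad23b (0.68 ± 0.11, adjusted p = 0.00052) and Ubqln4 (0.67 ± 0.11, adjusted p = 0.000735), and Nploc4 (0.68 ± 0.16, adjusted p = 0.0065) and Ufd1 (0.41 ± 0.12, adjusted p = 0.016), the cofactors of the segregase Vcp. Vcp itself differed by 0.11 ± 0.17. Uba6, which activates ubiquitin, was lower in DN4 than in DN3 (-0.47 ± 0.14, adjusted p = 0.0338), where Ubqln4 was higher (0.49 ± 0.11, adjusted p = 0.0124). When blocked by sort, 2 genes of this list were called higher in DN3 against DN2, Rad23b and Nploc4 (background 9.96%). In DN4 against DN3 the blocked fit called 3 higher, Rad23b, Ubqln4 and Ufd1 (background 15.4%).

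**Figure D4:**
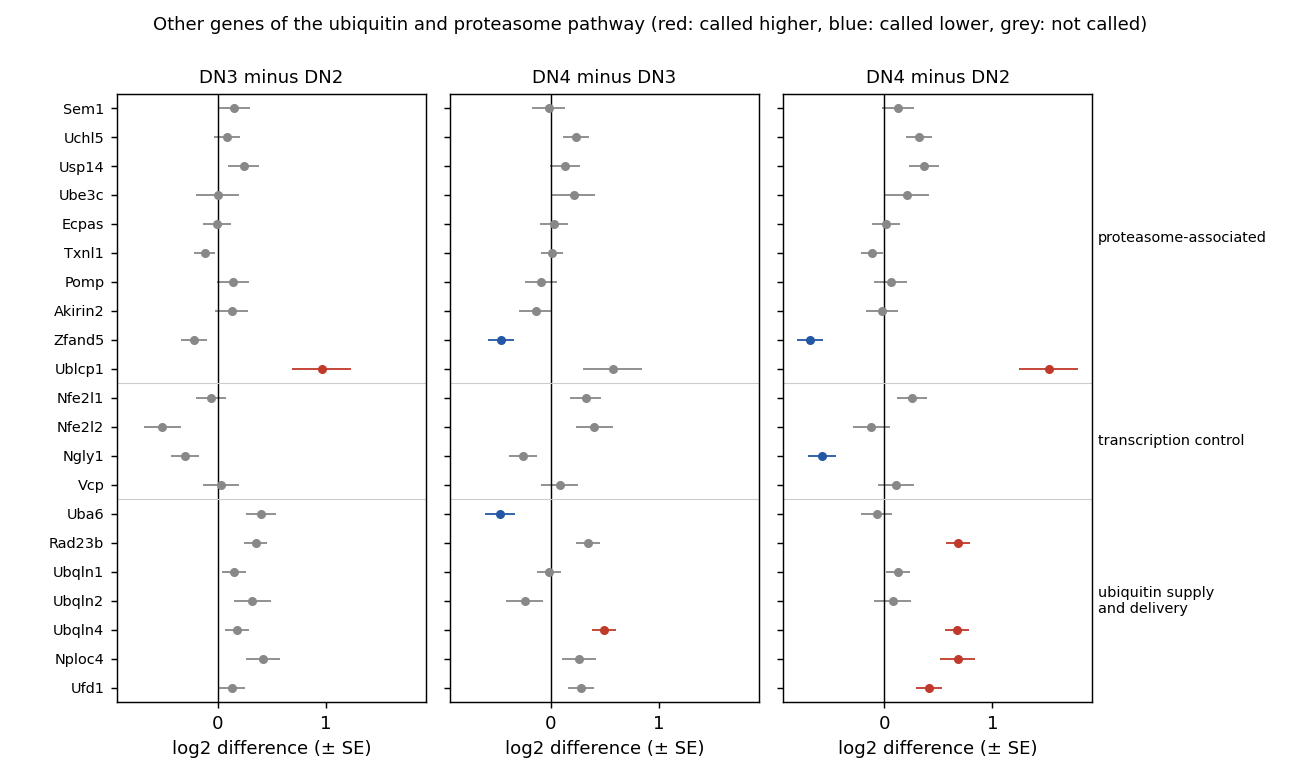
Log2 differences with SE (x axis, n = 4 arrays a stage) for 21 other tested genes of the pathway (y axis, by list) in the 3 comparisons, calls in colour. Ublcp1 at 1.52 and Rad23b, Ubqln4, Nploc4 and Ufd1 at 0.41 to 0.68 are called higher in DN4 minus DN2, and Zfand5 at -0.68 and Ngly1 at -0.57 lower.

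Nfe2l1, the transcription factor that raises proteasome genes when the proteasome is impaired, binds antioxidant response elements in their promoters. It averaged 7.05 ± 0.08 in DN2, 6.99 ± 0.19 in DN3 and 7.31 ± 0.24 in DN4 (SD, n = 4 each), and its difference of 0.26 ± 0.14 in DN4 against DN2 did not pass (adjusted p = 0.161). Ngly1, the enzyme that removes its sugars and so allows its activation, was lower in DN4 than in DN2 (-0.57 ± 0.13, adjusted p = 0.00474). Ngly1 was the 1 call among 4 tested genes of this list, where the background of lower calls is 16.8%. When blocked by sort it was also called lower at each step (adjusted p = 0.0252 in DN3 against DN2 and 0.0331 in DN4 against DN3), as was Nfe2l2, a relative of Nfe2l1, in DN3 against DN2 (-0.51, adjusted p = 0.0749, or 0.0442 when blocked). The core of the element, searched as TGACNNNGC on both strands of the 250 bases before the start site, stood in 5 of 39 members (12.8%) and in 11.5% of all genes with a RefSeq promoter. The 5 were Psmb5, Psmb6, Psmc6, Psmd9 and Psmd12. In DN4 against DN2, 4 of these, all but Psmb6, were called higher (background 17.9%). Of the 33 tested members whose promoter lacked the letters, 8 were called higher. The called members Psmb2, Psmb7, Psmc3 and Psmg2 had no RefSeq promoter and are in neither count. The calls of Psmc6 and Psmd12 were lost without any of 5 and 3 single arrays, and that of Psmc6 also with the mean of its probe sets (0.11). The same counts in DN4 against DN2 were made for the other motifs searched. With and without the CCAAT box, 3 of 14 and 9 of 24 tested members were called higher. For the E-box these were 2 of 5 and 10 of 33. For the core of the interferon response element, given below, they were 1 of 3 and 11 of 35. The antioxidant core had the widest split of the 4 motifs. These counts describe few genes and were not tested. The matches are shown in capitals in 60 bases around each, 5' to 3' on the gene's strand, at chr14:54618009-54618068 (minus strand), chr11:70525297-70525356, chr14:45329574-45329633, chr5:123228130-123228189 and chr11:107479278-107479337 (plus strand), GRCm38.p6.
Psmb5: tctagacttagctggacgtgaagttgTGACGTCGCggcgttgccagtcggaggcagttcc
Psmb6: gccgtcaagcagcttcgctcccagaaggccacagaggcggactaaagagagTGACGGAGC
Psmc6: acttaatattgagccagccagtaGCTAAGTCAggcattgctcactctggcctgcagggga
Psmd9: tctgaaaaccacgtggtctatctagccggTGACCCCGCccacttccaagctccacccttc
Psmd12: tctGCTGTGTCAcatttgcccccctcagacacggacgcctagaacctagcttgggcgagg
In Psmb5, Psmb6 and Psmd9 the letters read along the gene and end 38, 0 and 22 bases before the start site of the RefSeq promoter. In Psmc6 and Psmd12 they read on the other strand and end 218 and 238 bases before it. For Psmb6 this start site lies after the annotated gene start, 70525324 on chromosome 11. By that annotation the Psmb6 match is inside the gene and not upstream of it. The 4 motifs searched were this core, the CCAAT box, the E-box and the core of the interferon response element (GAAA, 2 bases of any kind and GAAA again), on both strands, and 0 pairs of matches overlapped in the members.

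The interferon core stood in 3 of 39 members (7.69%), Psmb3, Psmd4 and Psmd9, and in 3.46% of all genes, and not in the windows of Psme1 and Psmb10. Most tested genes of an interferon response list were called lower in DN4 than in DN2. Of 20, 0 were called higher (background 17.9%) and 13 lower (background 16.8%), with a median difference of -0.9 against 0.06 for all genes. When blocked by sort, 2 were higher, Ifit2 and Usp18 (background 24.8%), and 15 lower (background 22%). The summed signal of the list was 11000 to 11300 in DN2, 7830 to 10100 in DN3 and 5770 to 8350 in DN4. Ifi35 (-1.06 ± 0.13, adjusted p = 7.84e-05), Oas1a (-1.28 ± 0.17, adjusted p = 0.000114), Gbp2 (-2.12 ± 0.28, adjusted p = 0.000129) and Oasl2 (-2.47 ± 0.41, adjusted p = 0.000754) had the smallest p-values. In DN4 against DN3, Ifit2 was called higher (0.94 ± 0.2, adjusted p = 0.00911, background 7.17%). At this step 4 genes were called lower (background 9.09%), or 9 when blocked by sort (background 14.9%). In DN3 against DN2, 2 were called lower, Oas1a and Gbp3 (background 6.45%), or 7 when blocked (background 11%). Psme1 and Psmb10 are themselves known to be induced by interferon. The part of these genes in the lower Psme1 level was not tested.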

How the data were processed

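Transcript levels were measured on 12 Affymetrix Mouse Genome 430 2.0 arrays of DN2, DN3 and DN4 thymocytes, 4 each. RNA was labelled in 2 cycles of cDNA synthesis, per the labels' protocols. The authors made the deposited intensities, 1 linear signal a probe set, with the GCOS software (per the submitters' processing notes). Which version and scaling they used is not given in the sources used here. Array medians differed, so signals of all 45101 probe sets were quantile-normalized, and an offset of 5.69, the 25th percentile, was added before log2, which understates differences of dim genes.

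The platform annotation gave 1 symbol to 34945 probe sets, several to 932 and none to 9211. Symbols of 34741 were updated through Entrez identifiers to RefSeq (GRCm38.p6). A gene was represented by its brightest probe set. Genes above a signal of 20.6 (log2 4.71, the table's median) on at least 4 arrays were tested, 11170 in all. The test was a two-sided limma fit of stage means (limma 3.58.1, R 4.3.3) at an adjusted p under 0.05. The fitting code was first tested on simulated data that held known changes. Figures used matplotlib 3.10.9. Promoters of 39 of 47 members matched RefSeq; Psma8, Psmb1, Psmb2, Psmb7, Psmc3, Psmd3, Psmd7 and Psmg2 did not. The number of arrays limits the precision.

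Members, lists and tests were chosen with earlier results of these data known. Values on every array are given for called members of the single steps with the smallest p, the activators, Psmb10, Psmb11 and the subunits with active sites. Marker lists of other cell types were described by sums of signal and by their main genes.

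Sort numbers pair the arrays, since per the labels equal numbers mean one cell source. Deviations from stage means correlated at 0.251 to 0.342 within a sort and at -0.242 to 0.109 between sorts. Blocking by sort was tried as an alternative and is given where it changes the call of a member. Other alternatives changed the normalization, offset, filter, probe set choice, variance model, RNA quality covariate and arrays used.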

Additional observations from a re-analysis of the deposited data

Results flagged for a closer look

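In 12 of 138 sets of 4 arrays (46 tested members in 3 stages), 1 array lay far from the other 3, with a gap to its nearest neighbour above Dixon's 95% critical value, which chance gives in about 1 of 20 sets. The values were not treated further, and no cause was tested.

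Psma3 was high in sort 4 of DN4, at 12.77, against 12.62 to 12.64 on the other 3 arrays. In DN4, Psma4 stood high at 11.76 in sort 1, with 11.35 to 11.38 in the remaining sorts. The DN3 array of sort 3 gave 11.83 for Psma5, and the others 11.9. Psmb5 was low in sort 1 of DN3, at 11.48, against 11.54 to 11.55 on the other 3 arrays. In DN4, Psmc3ip stood high at 9.62 in sort 1, with 9.41 to 9.44 in the remaining sorts. The DN4 array of sort 1 gave 10.63 for Psmd4, and the others 10.87 to 10.92. Psmd5 was low in sort 2 of DN2, at 9.24, against 9.55 to 9.59 on the other 3 arrays. In DN4, Psme3 stood low at 9.89 in sort 2, with 10.14 to 10.18 in the remaining sorts. The DN2 array of sort 1 gave 10.12 for Psme3ip1, and the others 9.67 to 9.7. Psme4 was low in sort 2 of DN3, at 9.26, against 9.5 to 9.53 on the other 3 arrays. In DN4, Psmf1 stood low at 8.88 in sort 2, with 9.04 to 9.05 in the remaining sorts. The DN2 array of sort 1 gave 9.09 for Psmg3, and the others 8.63 to 8.69. All of these are levels on the log2(signal + offset) scale. The low Psme3 array in DN4 still lay above every DN2 array, and Psmb5 in DN3 spanned a narrow range.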

How the results depend on the processing

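The 13 alternatives and the arrays left out in turn were compared by the counts of members called higher, which were 2 in DN3 against DN2, 3 in DN4 against DN3 and 16 in DN4 against DN2, and by the members' medians. The background of higher calls over all genes changes with the setting and is given with the counts. Blocked by sort (replicate block) the count in DN4 against DN3 was 15 (background 15.4%). With this block and a covariate for the 3' to 5' Gapdh ratio, DN3 against DN2 gave 0 (background 1.41%) with a median of 0.12. DN4 against DN3 gave 9 (background 12%). With arrays centred on their median, the medians were 0.2, 0.25 and 0.44 (DN3 against DN2, DN4 against DN3, DN4 against DN2), those of all genes 0.1, -0.02 and 0.06, and 0 members were lower in DN4 against DN2. With no normalization the counts were 0, 0 and 1 (backgrounds 2.62%, 0.357% and 2.56%). The medians were 0.23, -0.16 and 0.06, where those of all genes were 0.13, -0.41 and -0.29. With no filter the counts of the 2 single steps were 0 and 1 (backgrounds 1.87% and 2.3%), and 12 in DN4 against DN2 (background 8.56%). A filter at the 75th percentile gave 11 in DN4 against DN3 (background 11.6%). The mean of all probe sets gave 1 in DN3 against DN2 (background 4.9%). Probe sets named _x_at or _s_at left out gave medians of 0.19 in DN4 against DN3 and 0.29 in DN4 against DN2. Fits of the 8 arrays compared gave 0 and 5 at the single steps (backgrounds 3.83% and 7.39%). Trend and robust settings gave 9 in DN4 against DN3 (background 8.14%). Sorts 1 and 2 alone gave 0, 0 and 2 (backgrounds 1.25%, 1.08% and 10.2%). Their medians were 0.18 and 0.28 in the comparisons of DN4 with DN3 and DN2. Sorts 3 and 4 alone gave 0, 0 and 10 (backgrounds 2.06%, 1.49% and 12.4%). They also gave a median of 0.13 in DN3 against DN2 and 0 lower members in DN4 against DN2. The cause of these shifts was not tested. Leaving out 1 array in turn gave 0 to 2, 1 to 5 and 12 to 17 members called higher. The backgrounds were 3.48% to 4.84%, 3.87% to 7.93% and 14.4% to 17.8%. The count in DN3 against DN2 was 0 without DN2 replicate 2 or without DN3 replicate 3 or 4. It was 1 when DN2 replicate 4, DN3 replicate 1, or any of DN4 replicates 1, 3 and 4 was omitted. In DN4 against DN3 the count was 1 without DN3 replicate 1, 2 or 3 or DN4 replicate 1, and 5 without DN2 replicate 1 or DN3 replicate 4. Medians ranged over 0.05 to 0.1, 0.14 to 0.18 and 0.24 to 0.28. The change of Psmb10 relative to Psmb7 in DN4 against DN2 ranged from -0.83 to -0.54 (exact permutation p = 0.0286 without DN4 replicate 2, and at most 0.171). The call of Psme3 in DN4 against DN2 held under all 13 alternatives and all 12 arrays left out, with differences of 0.6 to 1.28. Depth is unknown for array signals, and the dimness of Psmb11 limits what can be said of it.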
